A study of Mus musculus with 8 samples.

Results

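The transcripts described here are those of 9 genes that mark the first steps of B cell development: Ebf1, Vpreb1 and Igll1, taken as early genes, and Pax5, Vpreb3, Cd79a, Cd79b, Blnk and Ms4a1, taken as later ones. They were picked by symbol out of the 50686 genes in the deposited tables, and all 9 were found. RNA came from hematopoietic stem cells (HSCs), which renew themselves in the marrow and give rise to every blood lineage, of C57BL/6J mice whose age and treatment the labels do not give. Lineage-positive marrow cells were first depleted with a kit, and the HSCs were then sorted by antibodies to CD117, Sca-1, CD48 and CD150, 10000 G0/1 cells per library. Large HSCs were the top 10% of the size distribution by forward scatter, Medium HSCs were within 10% of the average, Small HSCs were the bottom 10%, and All HSCs were not fractionated by size. Each of the 4 groups had 2 libraries, numbered 1 and 2, and no label says that the pair came from different mice. The p-values therefore speak to the variation among these libraries only, and that variation may be technical.

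B cells arise in the marrow from lymphoid progenitors. The transcription factor Ebf1 starts the programme and, with Pax5, commits cells to it. Progenitors then display a pre-B cell receptor, in which a rearranged heavy chain pairs with a surrogate light chain made of the Igll1 and Vpreb1 products, and signals through Cd79a, Cd79b and the adaptor Blnk. Ms4a1, which encodes CD20, comes up later, as cells mature. An HSC is not known to carry a pre-B cell receptor, and B cells are among the lineage-positive cells that the depletion step is meant to remove.

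Total counts ran from 13698362 to 16838448 per library. Levels are given in TPM, which is scaled for transcript length and can be compared between genes, and tests used counts, shown as CPM (counts scaled to a common library size with TMM factors). The first principal component of log2 CPM, with 39.5% of the variance, placed the 4 libraries numbered 1 below 0 and the 4 numbered 2 above it, with Large 2 at 0.984 and the other 3 between 56.1 and 106. The sort antigen transcripts were present in every library, Kit at 137 to 392 TPM and Ly6a, which encodes Sca-1, at 32.4 to 669 TPM. Slamf1, which encodes CD150, was at 3.52 to 13.2 TPM. Cd48 was at 16.5 to 177 TPM, highest in Large 1 and lowest in All 2. Ly6a was lowest in Large 1. In bulk RNA such as this, a few cells with much of a transcript cannot be told apart from many cells with little, nor fewer cells of a type from less RNA per cell.

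The 9 transcripts together reached 414 TPM in Large 2 and 44.0 TPM in Large 1, the highest and the lowest of the 8 libraries. They summed to 77.2 and 182 TPM in Medium 1 and 2, 66.2 and 116 TPM in Small 1 and 2, and 72.9 and 102 TPM in All 1 and 2. By CPM, Large 2 was the highest of the 8 libraries for 6 of the 8 members with enough counts to be tested, a position it took in 5.28% of all 16066 tested genes. Large 1 was the lowest for 7 of these 8, against 17.7% of all genes, and both held for 5 of 8, namely Ebf1, Vpreb1, Igll1, Cd79a and Vpreb3, against 0.523% of all genes. The high and the low end of the series thus both lay in the Large group, for those 5 genes.

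**Figure D1:**
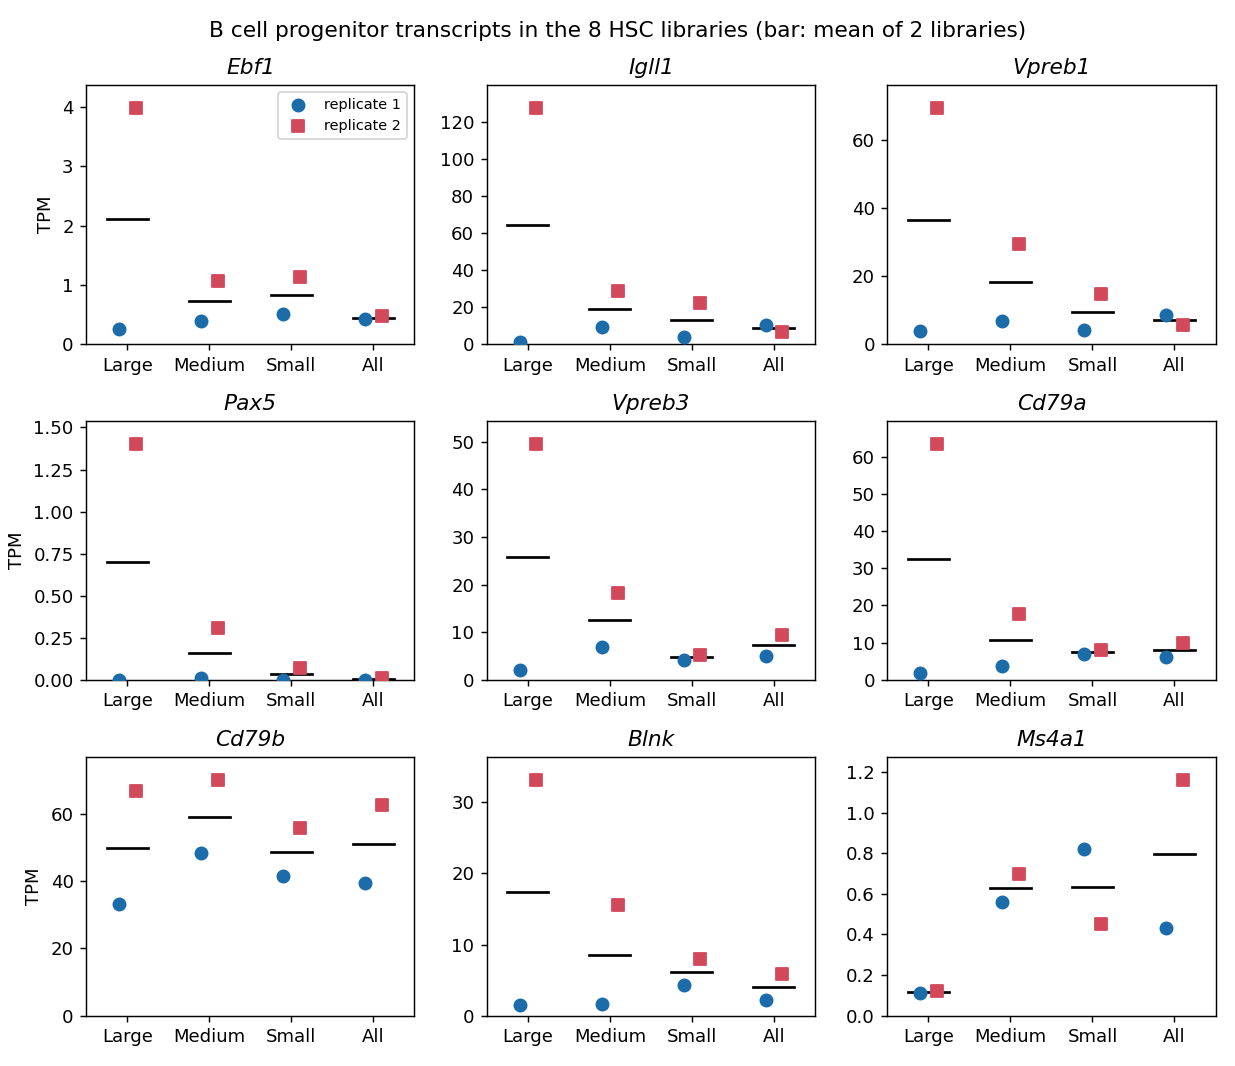
TPM of the 9 genes in each library (points, circles for replicate 1 and squares for replicate 2) by size group, with the mean of the 2 libraries as a bar; each panel has its own axis from 0. Large 2 stands above the other 7 libraries in 7 panels, Cd79b lies between 33.2 and 70.0 TPM throughout, and Ms4a1 is at 0.11 and 0.12 TPM in Large against 0.43 to 1.16 TPM elsewhere.

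Among the early genes, Igll1, which encodes the lambda5 part of the surrogate light chain, had the widest range. It was at 1.34 and 127 TPM in Large 1 and 2, 9.05 and 28.4 TPM in Medium 1 and 2, 3.68 and 22.3 TPM in Small 1 and 2, and 10.4 and 6.53 TPM in All 1 and 2. The 2 Large libraries therefore enclosed all 6 others, and the group means, 64.2 ± 88.9 TPM in Large, 18.7 ± 13.7 in Medium, 13.0 ± 13.2 in Small and 8.48 ± 2.76 in All (SD, n = 2), had neighbours no further apart than their spread. Vpreb1, the other chain of the surrogate, followed the same order of means at 3.68 and 69.3 TPM in Large 1 and 2, 6.72 and 29.6 in Medium, 4.02 and 14.7 in Small, and 8.60 and 5.63 in All. The ratio of Igll1 to Vpreb1 lay between 0.915 and 1.52 in the 6 Medium, Small and All libraries, and was 0.364 in Large 1 and 1.83 in Large 2. Their genes are neighbours, with Igll1 on chromosome 16 at 16860671 to 16863985 and Vpreb1 at 16868403 to 16870843 on the same strand (GRCm38), 4417 bases apart.

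Vpreb1 has a near-identical copy, Vpreb2, so the division of reads between the 2 was estimated and is uncertain. Their annotated protein-coding transcripts are identical at 739 of 759 aligned bases (97.4%). Vpreb2 was listed at 0 and 13.2 TPM in Large 1 and 2, 1.73 and 5.45 in Medium, 0 and 2.40 in Small, and 0 in both All libraries. Large 2 was highest for the copy as well.

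Ebf1 (chromosome 11, 44617317 to 45008091) was scarce outside Large 2. It had 0.25 and 3.98 TPM in Large 1 and 2, 0.39 and 1.07 in Medium, 0.51 and 1.14 in Small, and 0.42 and 0.47 in All, from 10 counts in Large 1 and 158 in Large 2. Its partner Pax5 (chromosome 4, 44524757 to 44710487) was near the limit of detection. Of its 50 counts in the whole series 37 fell in Large 2 and 0 in Large 1, with 1 and 6 in Medium, 0 and 5 in Small and 0 and 1 in All. Counts of 0 allow up to 0.189 to 0.203 CPM in these libraries (3 counts, counting error only), and the 2.43 CPM of Large 2 lay above that. Pax5 had too few counts for the test, so no fold is given.

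The later genes Cd79a, Vpreb3 and Blnk moved with the early ones in Large 2. Cd79a (chromosome 7, 24897381 to 24902197), a signalling subunit of the B cell receptor, had 1.86 and 63.4 TPM in Large 1 and 2, 3.61 and 17.7 in Medium, 6.95 and 8.14 in Small, and 6.25 and 9.90 in All. Vpreb3 (chromosome 10, 75943057 to 75949657), a relative of Vpreb1 whose product binds nascent receptor chains, had 2.02 and 49.4 TPM in Large 1 and 2, 6.92 and 18.2 in Medium, 4.17 and 5.26 in Small, and 5.09 and 9.34 in All. Blnk (chromosome 19, 40928927 to 40994535), the adaptor downstream of the receptor, had 1.54 and 33.1 TPM in Large 1 and 2, 1.61 and 15.6 in Medium, 4.38 and 7.90 in Small, and 2.25 and 5.90 in All. For all 3 the Large pair again spanned the other groups, and Medium 2 came second.

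Cd79b and Ms4a1 had patterns of their own. Cd79b (chromosome 11, 106311341 to 106314762), the partner of Cd79a in the receptor, had 33.2 and 66.7 TPM in Large 1 and 2, 48.4 and 70.0 in Medium, 41.6 and 55.9 in Small, and 39.5 and 62.6 in All. It was thus abundant in each library, also where its partner was scarce, and higher in the library numbered 2 of each group. The ratio of Cd79a to Cd79b was 0.056 in Large 1 and 0.950 in Large 2, 0.0746 and 0.253 in Medium, 0.167 and 0.146 in Small, and 0.158 in both All libraries, so the 2 subunits came near equal levels in Large 2 alone of these 8 libraries. Ms4a1 (chromosome 19, 11249675 to 11266241) had 0.11 and 0.12 TPM in Large 1 and 2, 0.56 and 0.70 in Medium, 0.82 and 0.45 in Small, and 0.43 and 1.16 in All. Both Large libraries lay below all 6 others for Ms4a1, as they did for 2.88% of all tested genes, and it was the single member of which this held. No member had both Large libraries above all 6 others, as 4.3% of genes did.

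**Figure D2:**
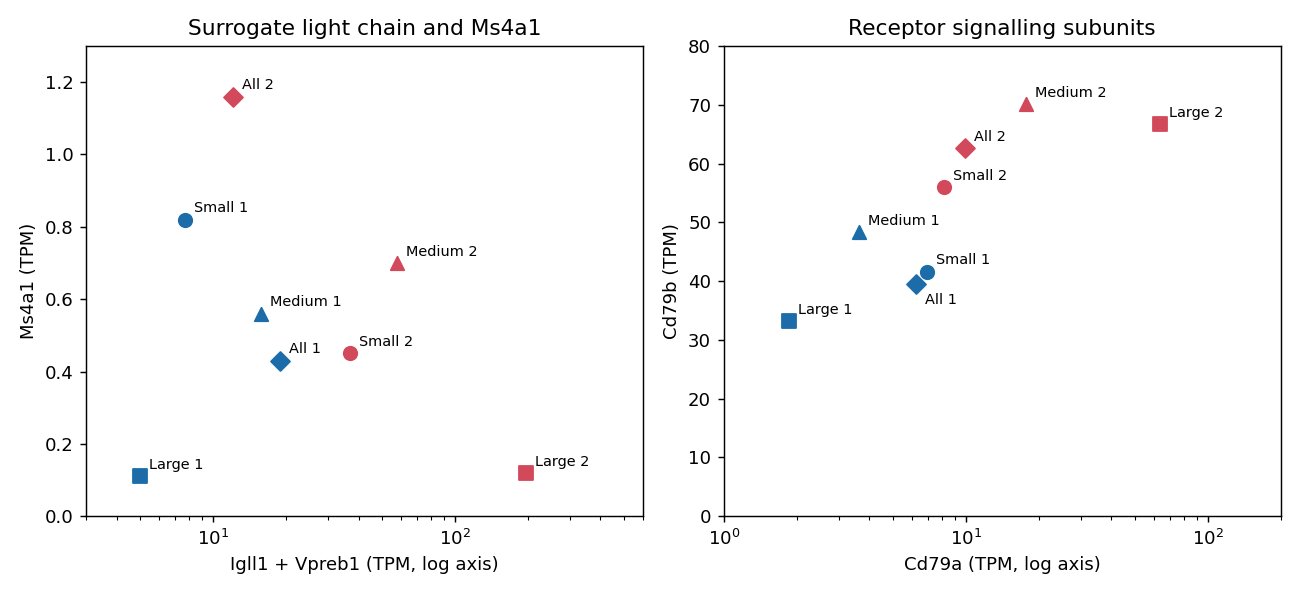
Left, Ms4a1 in TPM against the summed TPM of Igll1 and Vpreb1 (log axis); right, Cd79b against Cd79a in TPM (log x axis); each point is a library, with blue for replicate 1 and red for replicate 2. Large 1, at 5.02 TPM, and Large 2, at 196 TPM of surrogate light chain, are the extremes of the left x axis and share the lowest Ms4a1, and Cd79b varies 2.11-fold where Cd79a varies 34.1-fold.

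The promoters of 5 members that were highest in Large 2 are shown to set their sequence beside that shared pattern. Sequences are from RefSeq (GRCm38.p6), 250 bases before to 50 bases after the annotated start, 5′ to 3′ on the gene's strand; Ebf1 and Pax5 also had entries, which makes 7 of the 9 genes. Capitals mark matches, on either strand, to 4 motifs bound by B lineage factors: CCCNNGGG (EBF), CAGGTG (E proteins such as Tcf3), ATTTGCAT (the octamer, bound by Oct factors with Pou2af1) and GGAAGT (ETS factors such as Spi1). The regions are Igll1 at chr16:16863936-16864235 (minus strand), Vpreb1 at chr16:16869206-16869505 (minus), Cd79a at chr7:24897247-24897546 (plus), Vpreb3 at chr10:75948050-75948349 (plus) and Blnk at chr19:40994172-40994471 (minus).
Igll1: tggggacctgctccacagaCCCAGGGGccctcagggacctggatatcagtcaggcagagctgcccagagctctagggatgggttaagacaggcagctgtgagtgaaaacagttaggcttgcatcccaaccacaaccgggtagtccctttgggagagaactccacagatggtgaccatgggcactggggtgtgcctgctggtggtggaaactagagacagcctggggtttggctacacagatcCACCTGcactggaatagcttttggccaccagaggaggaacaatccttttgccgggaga
Vpreb1: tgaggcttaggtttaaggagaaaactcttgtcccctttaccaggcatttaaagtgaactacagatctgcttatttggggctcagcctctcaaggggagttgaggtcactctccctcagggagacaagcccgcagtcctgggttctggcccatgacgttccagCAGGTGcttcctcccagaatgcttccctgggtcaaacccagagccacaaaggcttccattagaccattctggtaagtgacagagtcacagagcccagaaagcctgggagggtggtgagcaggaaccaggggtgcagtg
Cd79a: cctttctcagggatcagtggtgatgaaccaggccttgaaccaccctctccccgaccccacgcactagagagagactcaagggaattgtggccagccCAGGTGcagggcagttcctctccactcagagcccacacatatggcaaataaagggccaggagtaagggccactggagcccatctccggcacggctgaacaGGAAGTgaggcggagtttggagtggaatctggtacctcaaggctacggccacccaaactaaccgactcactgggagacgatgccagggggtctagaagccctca
Vpreb3: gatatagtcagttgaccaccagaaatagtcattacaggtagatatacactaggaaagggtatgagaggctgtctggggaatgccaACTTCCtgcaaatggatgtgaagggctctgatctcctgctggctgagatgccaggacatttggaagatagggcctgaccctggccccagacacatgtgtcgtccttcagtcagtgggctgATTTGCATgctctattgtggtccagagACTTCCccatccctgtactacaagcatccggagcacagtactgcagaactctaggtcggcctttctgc
Blnk: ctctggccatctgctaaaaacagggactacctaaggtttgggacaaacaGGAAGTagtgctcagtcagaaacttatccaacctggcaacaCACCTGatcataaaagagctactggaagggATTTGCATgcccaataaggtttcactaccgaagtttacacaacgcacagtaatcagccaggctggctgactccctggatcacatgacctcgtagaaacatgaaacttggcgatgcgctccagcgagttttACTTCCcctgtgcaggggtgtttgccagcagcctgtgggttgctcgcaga

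No motif matches overlapped in these windows. Only exact matches to the letters of the 4 motifs were sought, so a window without a match may still hold a variant site. The EBF motif was in 1 of the 7 genes' promoters (Igll1), against 13.7% of the 32851 mouse promoters of the same length, and the E protein motif in 4 of 7 (Vpreb1, Igll1, Cd79a and Blnk), against 20.2%. The octamer was in 2 of 7, Vpreb3 and Blnk, against 1.74% of all promoters, at 45 bases before the start in Vpreb3 and 130 bases before it in Blnk. The ETS motif was in 4 of 7 (Ebf1, Cd79a, Vpreb3 and Blnk), against 23.8%. The Pax5 window and the first of the 2 Ebf1 windows held none of the 4 motifs.

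The first comparison asks how these transcripts differed with cell size, Large against Small. No member passed edgeR's quasi-likelihood test (0 of 8 tested, adjusted p = 0.975 for each of the 8), and neither did any other gene (0 of 16066, or 0.0%). At an unadjusted p under 0.05 there was 1 member, Ms4a1, and 506 genes in all, or 3.15%. DESeq2 called 12 genes, of which 0 were members. No member had both Large libraries above both Small ones (17.7% of genes did), and 1, Ms4a1, had both below (14.7%). The fitted log2 fold changes had a median of 2.06 over the 8 members, beside a median of 0.00 over all tested genes. That median rested on Large 2, as the sign of 7 members turned when it was left out. With the low-count filter removed, edgeR called 1 of the 9 members, Igll1 (adjusted p = 0.0121), where it called 0.193% of the 28543 genes then tested.

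Igll1 had 38.3 ± 52.5 CPM in Large and 6.50 ± 6.54 CPM in Small (log2 2.56, SE 1.65), and Vpreb1 had 19.2 ± 24.3 and 4.32 ± 3.27 CPM (log2 2.15, SE 1.35). Ebf1 had 5.55 ± 6.83 CPM in Large and 1.41 ± 0.432 CPM in Small (log2 1.98, SE 1.16). In each of these the SD of the Large group exceeded its mean. Of the later genes, Vpreb3 had 10.9 ± 14.1 CPM in Large and 1.84 ± 0.126 CPM in Small (log2 2.57, SE 1.27). Cd79a had 33.4 ± 44.3 and 7.13 ± 0.103 CPM (log2 2.23, SE 1.37), and Blnk had 21.6 ± 27.5 and 7.14 ± 2.31 CPM (log2 1.60, SE 1.40). Cd79b, at 43.8 ± 18.6 CPM in Large and 38.2 ± 4.34 CPM in Small, had a log2 fold change of 0.20 (SE 0.37). The early and the later genes other than Cd79b and Ms4a1 thus had fold changes that overlapped within their errors.

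Within replicate number 1 the log2 CPM difference of Large from Small was -0.66 for Igll1, -0.01 for Vpreb1, -0.54 for Ebf1, -1.71 for Cd79a, -0.83 for Vpreb3, -1.27 for Blnk and -0.20 for Cd79b. Within number 2 it was 2.75, 2.43, 2.51, 3.15, 3.35, 2.21 and 0.46 for the same 7 genes. The 2 replicate numbers therefore gave opposite signs for those 7 members. For Vpreb1 the number 1 difference was too small to give a direction, from 28 counts in Large 1 and 31 in Small 1. Ms4a1 was lower in Large within both, by -2.35 and -1.33. Ms4a1 had 0.239 ± 0.0343 CPM in Large and 1.24 ± 0.540 CPM in Small (log2 -2.34, SE 0.96, unadjusted p = 0.0462 by edgeR), from 3 and 4 counts in Large 1 and 2 against 25 and 12 in Small 1 and 2. Its pooled count per total count was 0.182 times that in Small, with a 95% exact interval of 0.0686 to 0.414 that covers counting error only.

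**Figure D3:**
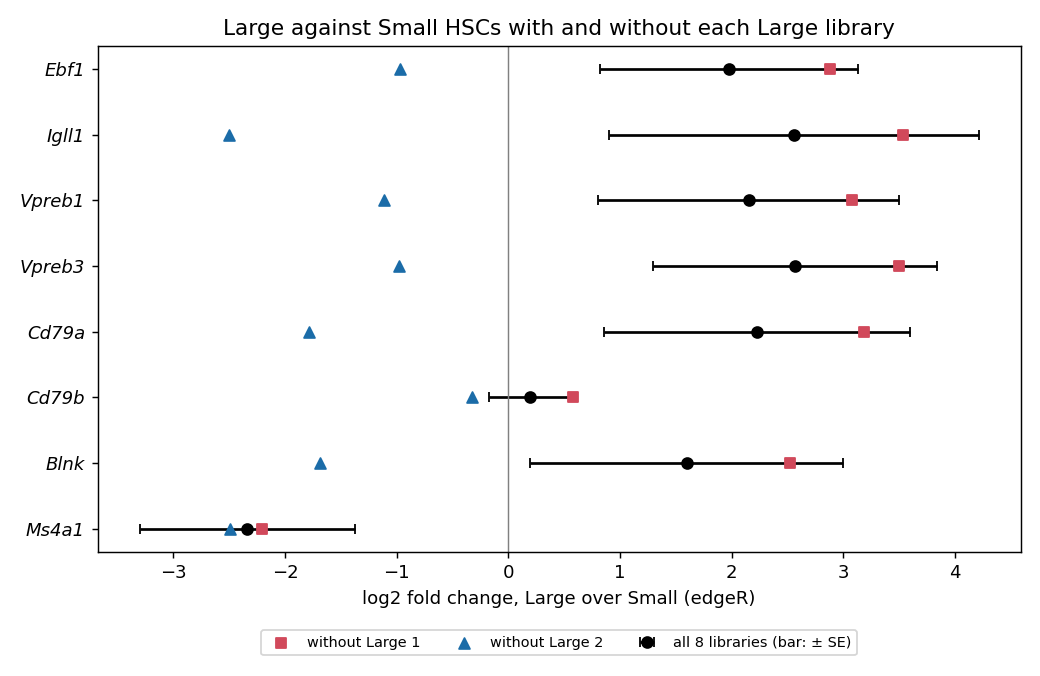
Fitted log2 fold change of Large over Small (x axis) for the 8 tested genes, with all 8 libraries (black, ± SE) and with Large 1 (red squares) or Large 2 (blue triangles) left out. Without Large 2 the values of 7 genes fall below 0, from -0.32 for Cd79b to -2.50 for Igll1, while Ms4a1 stays between -2.20 and -2.49.

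Large against Medium and Large against All gave the same 0 of 8 members, with 0 of 16066 genes (0.0%) called in each. These comparisons share the Large libraries with the one above and with each other, so their values are given side by side and are not independent. Igll1 had a log2 fold change of 1.88 (SE 1.61, adjusted p = 0.989 by edgeR) in Large over Medium and 3.09 (SE 1.69, adjusted p = 0.885 by edgeR) in Large over All. Ms4a1 had 0.239 ± 0.0343 CPM in Large against 1.33 ± 0.205 CPM in Medium and 1.61 ± 0.902 CPM in All, and log2 fold changes of -2.44 (SE 0.97) and -2.72 (SE 0.97). It was again the single member at an unadjusted p under 0.05 in each, 0.0396 and 0.0269 by edgeR, with adjusted p = 0.989 and 0.885, where 1.87% and 3.14% of all genes stood at that level. Per total count Ms4a1 in Large was 0.164 times Medium (95% exact interval 0.0624 to 0.369) and 0.133 times All (0.0512 to 0.294). No member had both Large libraries above both Medium ones (18.3% of genes) or both All ones (15.8%), and Ms4a1 alone had both below, as 17.2% and 16.2% of genes had. Without the low-count filter edgeR called Igll1 in Large against All (adjusted p = 0.000174), with 0.424% of genes; leaving out Large 2 turned its sign in both comparisons, to -3.17 over Medium and -1.97 over All. DESeq2 called 2 genes in Large against Medium and 8 in Large against All, none of them a member.

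Medium against Small, Medium against All and Small against All had 0 members and 0 genes called (0.0% in each), and 0 members at an unadjusted p under 0.05, where 4.33%, 1.63% and 3.96% of all genes stood. Vpreb3 was the single member with both Medium libraries above both Small ones, as were 16.6% of all genes, at 5.13 ± 3.19 CPM in Medium and 1.84 ± 0.126 CPM in Small (log2 1.48, SE 1.24, adjusted p = 1 by edgeR). The log2 CPM difference of Vpreb3 in Medium from Small was 0.68 within number 1 and 1.87 within number 2. No member had both Medium libraries below both Small ones, as 14.3% of genes had. By CPM, Ebf1 was the single member with both Medium libraries above both All ones (11.3% of genes), with 0 below (11.2%), but by TPM Medium 1 lay below both All libraries. By CPM, Vpreb3 was the single member with both Small libraries below both All ones (14.8%), with 0 above (12.0%), but by TPM Small 2 lay above All 1. DESeq2, limma-trend on log2(TPM + 1) and edgeR with the replicate number as a block each called 0 members in all 6 comparisons.

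Early and later genes were compared by the early share, the TPM of Ebf1, Vpreb1 and Igll1 as a percentage of all 9. It was 12.0% and 48.3% in Large 1 and 2, 20.9% and 32.5% in Medium, 12.4% and 32.9% in Small, and 26.7% and 12.4% in All. The ranges of the 4 groups overlapped, with means of 30.2 ± 25.7% in Large, 26.7 ± 8.19% in Medium, 22.7 ± 14.5% in Small and 19.6 ± 10.1% in All (SD, n = 2). Cd79b set much of this share, since it made up 16.1% of the members' TPM in Large 2, against 38.6% to 75.5% elsewhere. With Cd79b left out, a choice made after its values were seen, the early share was 48.8% and 57.6% in Large 1 and 2, 56.0% and 52.9% in Medium, 33.5% and 63.6% in Small, and 58.1% and 32.4% in All. On that scale Large 2 lay inside the range of the Small and All libraries, so it did not stand apart from them.

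Early and later genes did not separate in the same way in every group when the 2 libraries of a group were compared. In Large, replicate 2 stood above replicate 1 by 15.9-fold for Ebf1, 18.8-fold for Vpreb1 and 94.8-fold for Igll1, and by 34.1-fold for Cd79a, 24.5-fold for Vpreb3 and 21.5-fold for Blnk, with 2.01-fold for Cd79b and 1.09-fold for Ms4a1. In Medium, the early genes Ebf1, Vpreb1 and Igll1 stood 2.74-fold, 4.40-fold and 3.13-fold higher in replicate 2, and the later genes Cd79a, Vpreb3, Blnk, Cd79b and Ms4a1 stood 4.91-fold, 2.63-fold, 9.67-fold, 1.45-fold and 1.25-fold higher, so neither set was the higher. In Small, the early genes Igll1, Vpreb1 and Ebf1 stood 6.07-fold, 3.66-fold and 2.24-fold higher in replicate 2, while the later genes Cd79a, Vpreb3 and Blnk stood 1.17-fold, 1.26-fold and 1.80-fold higher, with 1.34-fold for Cd79b and 0.549-fold for Ms4a1. In All, replicate 2 held 0.626 times the Igll1 and 0.655 times the Vpreb1 of replicate 1 but 1.12 times the Ebf1, also an early gene. The later genes in All 2 were at 1.58 times All 1 for Cd79a, 1.59 for Cd79b, 1.84 for Vpreb3, 2.62 for Blnk and 2.70 for Ms4a1. The summed surrogate light chain exceeded Ms4a1 by 1636-fold in Large 2 and 45.6-fold in Large 1, by 28.2-fold and 82.8-fold in Medium, 9.39-fold and 82.3-fold in Small, and 44.3-fold and 10.5-fold in All. No test was made on these ratios, which each rest on single libraries. In Large, the ratios to Ms4a1 rest on 3 counts of Ms4a1 in Large 1 and 4 in Large 2. The 95% limits of those counts were 0.619 to 8.77 and 1.09 to 10.2, so both ratios are very uncertain.

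Other genes of the pathway were taken from lists drawn up by function, and in none of the 5 lists did a gene pass edgeR's test in either direction in any of the 6 comparisons. Of 11 genes of recombination and lymphoid priming, 5 were highest in Large 2, and all 11 in a library numbered 2. These 5 include Ighm, which is also counted among the immunoglobulin constant genes further below. All such list counts are by TPM. By CPM, Large 2 was the highest library in 5.28% of all 16066 tested genes. The share of all genes highest in a library numbered 2 was not computed, so those counts cannot be read as a trait of a list. Dntt, the polymerase that adds bases at V(D)J joints, had 5.25 and 262 TPM in Large 1 and 2, 14.1 and 182 in Medium, 29.5 and 182 in Small, and 7.82 and 10.7 in All. Il7r, the receptor for the growth factor of early B cells in mice, had 0.03 and 4.92 TPM in Large 1 and 2 and at most 1.15 TPM elsewhere. The recombinase gene Rag2 had 0.45 and 4.01 TPM in Large and at most 2.26 TPM elsewhere, and Rag1 at most 0.78 TPM, in Large 2. Flt3, the receptor of lymphoid-primed progenitors, was instead highest in Small 2, at 337 TPM, with 9.77 and 190 TPM in Large, and the progenitor antigen gene Cd34 ranged from 171 to 838 TPM.

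Among 15 genes of receptor signalling, 12 were highest in a library numbered 2, again with no share over all genes to set beside it. Genes of this list that other blood cells also use, such as the phosphatase gene Ptpn6 (239 to 479 TPM), the exchange factor gene Vav1 (110 to 225 TPM), the phospholipase gene Plcg2 (49.1 to 185 TPM) and the kinase gene Btk (81.0 to 101 TPM), lay in narrower ranges. Among 17 transcription factor genes, 2 were highest in Large 2, Pou2af1 at 11.95 TPM and Lef1 at 7.68 TPM, against 0.83 and 0.40 TPM in Large 1. The E protein gene Tcf3 (60.4 to 97.6 TPM) and Spi1 (148 to 242 TPM) were highest in Small 1, as was Irf8 (17.1 to 146 TPM), and Myb, which all blood progenitors use, ranged from 117 to 184 TPM. Of 8 immunoglobulin constant genes and surrogate light chain copies, 5 were highest in Large 2. Ighm, the heavy chain of the pre-B cell receptor, had 172 and 3555 TPM in Large 1 and 2, 783 and 1020 in Medium, 1099 and 228 in Small, and 324 and 150 in All, and Igkc, the kappa light chain, reached 5166 TPM in Large 2, while Iglc2, a lambda light chain gene, stayed between 5.23 and 30.2 TPM. Large 2 was the highest library for Igkc, Iglc2 and Iglc3 among the 4 light chain constant genes, and All 2 was the highest for Iglc1, at 15.3 TPM against 7.68 TPM in Large 2. Of 21 genes of mature B cells, 3 were highest in Large 2 and 19 in a library numbered 2; their sum was 1276 and 2363 TPM in Large 1 and 2, 1597 and 3026 in Medium, 1879 and 3045 in Small, and 1802 and 2768 in All, so it did not single out Large 2. The 4 most abundant of them, which other blood cells also express, were Cd74 (35.0 to 780 TPM), Cd52 (135 to 569 TPM), Cd24a (up to 406 TPM) and Cd53 (111 to 347 TPM).

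**Figure D4:**
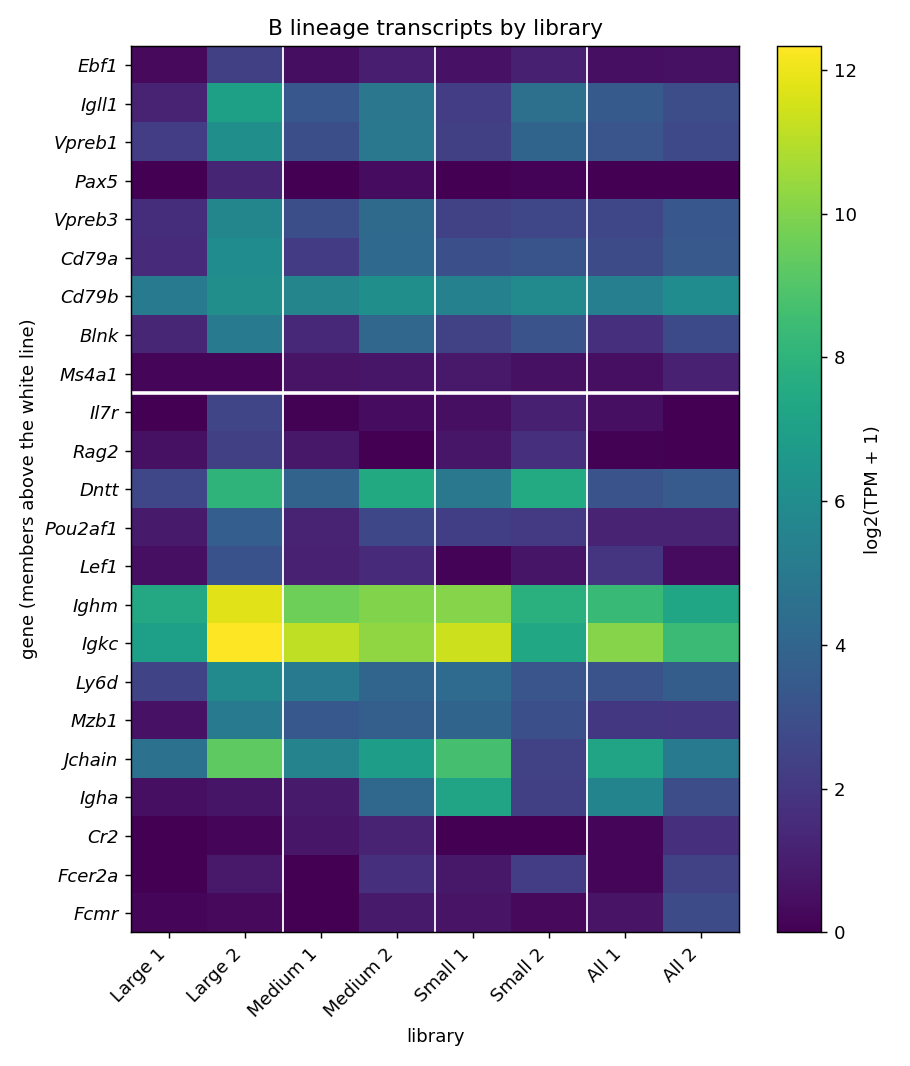
log2(TPM + 1) of the 9 members (above the white line) and 14 other B lineage genes (rows) in each library (columns), with brighter colours for higher values. The Large 2 column is the brightest from Ebf1 to Blnk except for Cd79b and from Il7r to Jchain, while Ms4a1, Igha, Cr2, Fcer2a and Fcmr are brightest in Small 1 or All 2. The 14 genes below the line were chosen after their values were seen, so the pattern they show was set by that choice.

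Markers of other cells were set beside these values, and their part in the pattern was not tested. A few genes set much of some sums. For plasma cells this was Xbp1 (217 to 344 TPM). For T cells it was Lat (14.5 to 65.9 TPM) and Lck (6.70 to 62.7 TPM). For macrophages, listed further below, it was Vcam1 (9.09 to 53.4 TPM). Plasma cell markers (6 of 6 tested, 3 highest in Large 2) summed to 315 and 951 TPM in Large 1 and 2, 326 and 434 in Medium, 774 and 380 in Small, and 402 and 270 in All, and Tnfrsf17 was listed at 0 in Large 1, both Small libraries and All 2. Markers of plasmacytoid dendritic cells (6 of 7 tested, 2 highest in Large 2), which share Ly6d and Irf8 with B cell progenitors, summed to 216 and 345 TPM in Large, 227 and 275 in Medium, 274 and 248 in Small, and 143 and 231 in All. Their defining gene Siglech did not exceed 3.90 TPM. T cell markers (9 of 11 tested, 1 highest in Large 2) summed to 29.1 and 103 TPM in Large, 73.0 and 136 in Medium, 72.4 and 142 in Small, and 56.4 and 113 in All, with Cd3e at 2.55 TPM or less.

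Lists of more distant cells had 0 genes highest in Large 2 by TPM, where 5.28% of all tested genes were highest there by CPM. Granulocyte markers (11 of 11 tested) summed to 55863 and 32895 TPM in Large 1 and 2, 42432 and 13110 in Medium, 67165 and 21503 in Small, and 101532 and 8086 in All. Erythroid markers (9 of 9) summed to 2449 and 805 TPM in Large, 1918 and 599 in Medium, 2580 and 464 in Small, and 1623 and 1434 in All. NK markers (5 of 6) summed to 1845 and 719 TPM in Large, 1019 and 410 in Medium, 1318 and 401 in Small, and 778 and 129 in All, nearly all of it Nkg7, and the NK genes Ncr1 and Eomes were listed at 0 in Medium 2, Small 2 and All 2. Macrophage markers (6 of 6) summed to 55.5 and 39.5 TPM in Large, 48.9 and 21.3 in Medium, 80.5 and 74.0 in Small, and 48.3 and 27.6 in All. HSC sort antigen and identity genes (10 of 10) summed to 503 and 1219 TPM in Large, 943 and 1836 in Medium, 839 and 2227 in Small, and 829 and 2355 in All. Of the 4 libraries numbered 2, Large 2 thus had the lowest sum of this list. These sums include Cd48 as a sort antigen gene, not as a mark of HSC identity, and its share differed between libraries. They are therefore not a measure of HSC identity. Cd48 had 177 and 127 TPM in Large, 94.8 and 83.2 in Medium, 165 and 87.4 in Small, and 78.7 and 16.5 in All.

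Over the 8 libraries, 7 of the 8 tested members correlated with the mean profile of the other members, with Pearson's r of log2 CPM from 0.863 (Ebf1) to 0.949 (Cd79a), whereas Ms4a1 had -0.162. The 8 points share the replicate numbers, and without Large 2 the same 7 had r from 0.775 to 0.913 and Ms4a1 had 0.564. Without Medium 2 as well, the 7 had r from 0.496 (Vpreb1) to 0.829 (Cd79a), with 0.525 for Ebf1 and 0.551 for Blnk, and Ms4a1 had 0.678. Of 11490 other genes with a mean of at least 1 TPM, leaving out pseudogenes and provisional symbols, the 10 most like the mean member profile, which includes Cd79b and Ms4a1, had r from 0.889 to 0.966. They were H2-DMb2, Sestd1, Nanos3, Bhlhe40, Mindy4, Zfp846, Ptpn3, Rnf157, Poll and the heavy chain segment Ighv1-82. H2-DMb2, a chain of the chaperone that loads MHC class II molecules, was at 5.78 TPM in Large 1 and 17.0 TPM in Large 2, a smaller span than that of Igll1 or Cd79a.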

How the data were processed

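The deposited table held estimated counts per gene, deposited by the authors as whole numbers with no scaling of one library to another; a second deposited table held log2(TPM + 1), from which TPM was recovered by subtracting the pseudocount of 1. Per the submitters' processing notes, STAR 2.5.3a, RSEM 1.3.0, SAMtools 1.3 and mm10 were used; the annotation release and the strand setting are not given in the sources used here. Symbols and coordinates are from GENCODE M21 (GRCm38), which matched 50376 of 50686 gene IDs. Counts were tested with edgeR 4.0.16 (R 4.3.3): filterByExpr with a minimum count of 10 kept 16066 genes, TMM scaling, robust quasi-likelihood fit of the 4 groups to the 8 libraries, with no covariate (4 residual degrees of freedom), two-sided p-values, Benjamini-Hochberg adjustment over all tested genes and a threshold of 0.05. Log2 CPM used a prior count of 2. An adjusted p from this fit assumes that all groups share 1 spread. The procedure was tested on simulated counts. Their spread was set in advance, not taken from these libraries. That run therefore does not show how many changes the test misses here. Alternatives were DESeq2 1.42.0, its size factors in edgeR, other filters, only the 2 groups compared, limma 3.58.1 on log2(TPM + 1), a replicate block, and leaving out each library. TPM and CPM are relative to the other RNA of a library, so higher and lower do not refer to amounts per cell. The intervals and floors allow for counting error alone, because PCR copies of a molecule were counted apart. How reads were split among close copies (Vpreb1 and Vpreb2, immunoglobulin segments) is uncertain. The 9 genes, the lists and the motifs were chosen with earlier results of these data known. Named outside the members were up to 4 genes of a list with the highest mean TPM, genes at 0, and the 10 most like the mean member profile; Il7r, Rag1, Rag2, Pou2af1, Lef1, Vpreb2, Tnfrsf17, Cd3e, Siglech, Ncr1, Eomes and the 14 genes of the heat map were chosen after their values were seen. Drug-treated HSCs of the wider study were not analysed here.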

Additional observations from a re-analysis of the deposited data

How the results depend on the processing

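The count of members called stayed at 0 in all 6 comparisons with DESeq2, its size factors, a minimum count of 50, only the 2 groups, limma-trend and each library left out, and became 1 (Igll1) in Large against Small and 1 in Large against All without the low-count filter. With that filter removed, edgeR called 55 of all genes in Large against Small, 58 in Large against Medium, 73 in Medium against Small, 121 in Large against All, 48 in Medium against All and 69 in Small against All, and DESeq2 called 12, 2, 46, 8, 6 and 28 in that order, where the filtered edgeR test called 0; the cause was not tested. Limma-trend called 1 gene in each of Large against Small, Large against Medium and Large against All. Leaving out single libraries moved the Large over Small log2 fold change between -0.97 and 2.88 for Ebf1, -1.11 and 3.25 for Vpreb1, -2.50 and 4.35 for Igll1, -1.78 and 3.18 for Cd79a, -0.32 and 0.58 for Cd79b, -0.98 and 3.50 for Vpreb3, and -1.69 and 2.52 for Blnk, with the lowest value in each case without Large 2. For Igll1 it ran from -3.17 to 2.93 over Medium and from -1.97 to 4.07 over All. Limma-trend put Cd79b at -0.03 in Large against Small (-0.0336 unrounded). A fit that leaves out a library assumes that the lone one left varies like the other groups. The early share without Cd79b, added after seeing the data, moved to 53.2% in Large, 54.4% in Medium, 48.6% in Small and 45.3% in All, in Large by less than its SD. The labels do not say that a replicate number marks a shared animal or day. Same-numbered libraries deviated together from their group means (correlations 0.358 to 0.439 over the 6 pairs of groups), and with the replicate block edgeR called 0 members and 0 genes in all 6 comparisons, with 2791 genes at an unadjusted p under 0.05 in Large against Small in place of 506. With the block 0 members stood at that level in Large against Small and in Large against Medium, where Ms4a1 did without it, and 1 in Large against All; the adjusted p of Ms4a1 with the block was 0.329, 0.361 and 0.237 by edgeR. Pax5, with 50 counts, and Ms4a1, with 141, are limited by depth.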

Other observations

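B lineage transcripts outside the 9 genes were spread over different libraries. Igha, the constant gene of immunoglobulin A, was at 148 TPM in Small 1 and 46.3 TPM in All 1, where the surrogate light chain summed to 7.70 and 19.0 TPM, and at 0.43 and 0.60 TPM in Large 1 and 2. Jchain, which links immunoglobulin A and M into polymers, was at 24.0 and 622 TPM in Large 1 and 2 and at 412 and 4.39 TPM in Small 1 and 2. Small 1 and Large 2 were thus both high in Jchain, but Igha was high in Small 1 and not in Large 2.

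Genes of mature B cells peaked in All 2. Fcmr, the receptor for immunoglobulin M, was at 6.06 TPM in All 2 and at most 0.87 TPM in the other 7 libraries. Cr2, a complement receptor, was at 2.28 TPM and Fcer2a, which encodes CD23, at 4.25 TPM in All 2, against 0.14 and 0.80 TPM in Large 2. In All 2 Ms4a1 was likewise the highest of the 8 libraries, while Igll1 was at 6.53 TPM. These 5 genes were chosen after their values were seen, and no test was made.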
